A study of Mus musculus with 9 samples.

Results

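The genes of retinoic acid synthesis, binding and breakdown described here are 9 of the 56481 gene symbols in a table of read counts from mouse cells. They were chosen by name for their role in the pathway: Rdh10, Aldh1a1, Aldh1a2 and Aldh1a3 for synthesis, Dhrs3 for the reverse step, Crabp1 and Crabp2 for binding, the receptor Rarb, and Cyp26b1 for breakdown. Earlier results of these data were known when the list was chosen. All 9 genes were found in the table, and each matched 1 gene of the mouse annotation. They were measured by RNA sequencing in 9 libraries, 3 for each of 3 kinds of cells. The starting cells, primary neural crest cells (pNCC), were taken from mouse embryos at stage E13.5 and kept in DMEM with 10% fetal bovine serum (FBS). Induced corneal endothelial cells (iCEC) were made from such cells in DMEM/F12 with 5% KSR, a serum replacement, and 5 µM of the TGF-β inhibitor SB431542, which blocks the kinase of its type I receptor. The labels describe renewal of that medium every 2 days, clusters by day 4 and colonies characterised on day 12. The cells labelled primary corneal endothelial cells (pCEC) were kept in the serum medium used for pNCC. Strain, genotype and the age of the pCEC donors are not given in the labels. Cell identity, medium and inhibitor changed together between iCEC and the other groups and cannot be told apart.

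Retinoic acid is made from retinol (vitamin A) by sequential oxidations: retinol dehydrogenases such as RDH10 give retinal, and the ALDH1A enzymes turn retinal into retinoic acid. It binds nuclear receptors (RAR) that pair with RXR on DNA, while CRABP proteins carry it in the cytosol and CYP26 enzymes hydroxylate it for removal. In the developing eye, retinoic acid made by the optic cup, lens and surface ectoderm acts on the neural crest mesenchyme around them, which contributes to the cornea. Several genes of the pathway, among them Rarb and Cyp26a1, are known to be induced by retinoic acid through paired sites in their promoters.

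Those paired sites are shown first, because they link the receptor gene in the list to retinoic acid itself. Promoters of 300 bases, 250 before to 50 after each gene's start, were taken from RefSeq (GRCm38.p6, the assembly behind mm10). They matched 6 of the 9 genes, with 9 promoters. Rdh10, Aldh1a3 and Crabp2 had no entry. Both strands were searched for direct repeats of the 6-base receptor site, spaced by 1, 2 or 5 bases (DR1, DR2 and DR5), and for single AGGTCA sites. Overlap between motifs was allowed. Of the listed genes, Rarb alone held a DR5 in the window searched. None of the matched genes held a DR1, a DR2 or an AGGTCA. Across all 32851 promoters, 0.0974% held a DR5, 0.222% a DR1, 0.268% a DR2 and 16.3% an AGGTCA. Among the 58 other pathway genes with a promoter, Cyp26a1, the sister gene of Cyp26b1, also held a DR5. The 100 bases before the start of both genes are given on the strand of the gene, with the DR5 in capitals. A match describes letters only and is no evidence that a receptor was bound in these cells.
Rarb, chr14:16575477-16575576, minus strand: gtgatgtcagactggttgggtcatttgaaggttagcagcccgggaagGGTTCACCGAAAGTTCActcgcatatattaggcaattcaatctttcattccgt
Cyp26a1, chr19:37697708-37697807, plus strand: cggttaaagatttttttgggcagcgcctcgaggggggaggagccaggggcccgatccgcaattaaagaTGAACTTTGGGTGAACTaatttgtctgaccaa
The Rarb element lay 53 to 37 bases before the start, on the strand of the gene. The Cyp26a1 element lay 32 to 16 bases before the start and read as a direct repeat on the opposite strand. Rarb transcripts rise from several promoters, and the deposited counts are per gene, so the use of this promoter was not measured.

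Library totals lay between 27389292 counts (pCEC 3) and 47967113 counts (iCEC 1). The libraries are labelled polyA RNA, except pCEC 2 and pCEC 3, which are labelled total RNA. iCEC 3 stood apart from its group: the chi-square per degree of freedom over genes was 557 against iCEC 1 and 682 against iCEC 2, and 240 between iCEC 1 and iCEC 2. Markers of the labelled cell types were compared in CPM, the count of a gene scaled to the total of its library. The neural crest factors Sox10 and Foxd3 stood at 35.6 ± 17.7 and 19.3 ± 11.3 CPM in pNCC (SD, n = 3), and at or near 0 in the other groups, with Foxd3 at 0 in all of iCEC. Other neural crest markers did not follow them: Sox9 was highest in iCEC (332 ± 203 CPM against 36.5 ± 4.85 CPM in pNCC) and Erbb3 in pCEC (261 ± 3.95 CPM against 42.4 ± 21.2 CPM). Summed over 10 neural crest markers, the level was 820 to 1069 CPM in pNCC, 315, 491 and 809 CPM in iCEC 1, 2 and 3, and 433 to 530 CPM in pCEC. In pCEC, the corneal endothelial genes Col8a2 and Slc4a11 stood at 89.2 ± 58.5 and 61.1 ± 28.5 CPM, beside the corneal epithelial keratin Krt12 at 10180 ± 1106 CPM. In iCEC, Col8a2 was nearly absent (0.0760 ± 0.0660 CPM) and Slc4a11 stood at 6.73 ± 3.5 CPM. Other corneal endothelium markers did not follow them: Cdh2 was highest in pNCC (155 ± 18.5 CPM against 2.18 ± 2.19 CPM in pCEC). Atp1b1 was highest in iCEC (129.5 ± 83.1 CPM against 11.9 ± 9.89 CPM in pCEC). Of 12 such markers, 6 were higher and 2 lower in pCEC than in pNCC, where 30.3% and 32.2% of all genes tested were. Summed over 12 surface epithelium markers, the level was 89.8 to 137 CPM in pNCC, 15250 to 20330 CPM in iCEC and 57980 to 73710 CPM in pCEC. Krt12 and Muc4 were at 0 in pNCC. Summed over 12 corneal endothelium markers, it was 837 to 893 CPM in pNCC, 2050 to 2649 CPM in iCEC and 1196 to 1554 CPM in pCEC. Separate cultures or animals behind the replicates are not stated in the labels, so each p value reflects the spread of these libraries, which may be technical.

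In iCEC against pNCC, 5 of the 8 genes tested were higher (Rdh10, Aldh1a1, Aldh1a3, Dhrs3 and Rarb), 1 was lower (Crabp1) and 2 did not pass (Crabp2 and Cyp26b1). Of all 16293 genes tested in that comparison, 31.3% were called, 16.1% higher and 15.1% lower. In pCEC against pNCC, 4 were higher (Aldh1a1, Aldh1a3, Dhrs3 and Rarb), 2 were lower (Crabp1 and Crabp2) and 2 did not pass (Rdh10 and Cyp26b1), where 62.5% of 16608 genes were called, 30.3% higher and 32.2% lower. In iCEC against pCEC, 3 were higher (Rdh10, Crabp2 and Rarb), none was lower and 5 did not pass, where 20.4% of 16278 genes were called, 10.5% higher and 9.92% lower. Aldh1a2 did not pass the filter on low counts in any comparison. The median log2 fold change of the 8 tested genes was 3.27, 0.97 and 0.50 in the 3 comparisons, beside medians of 0.05, -0.01 and 0.04 over all genes tested. CPM ranges of the groups did not overlap for 6, 6 and 3 of the 8 genes, beside 51%, 70.7% and 43.9% of all genes tested. Because the list was chosen with earlier results of these data known, its counts and medians beside those of all genes are a description only. The comparisons with pNCC share the same control libraries.

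**Figure D1:**
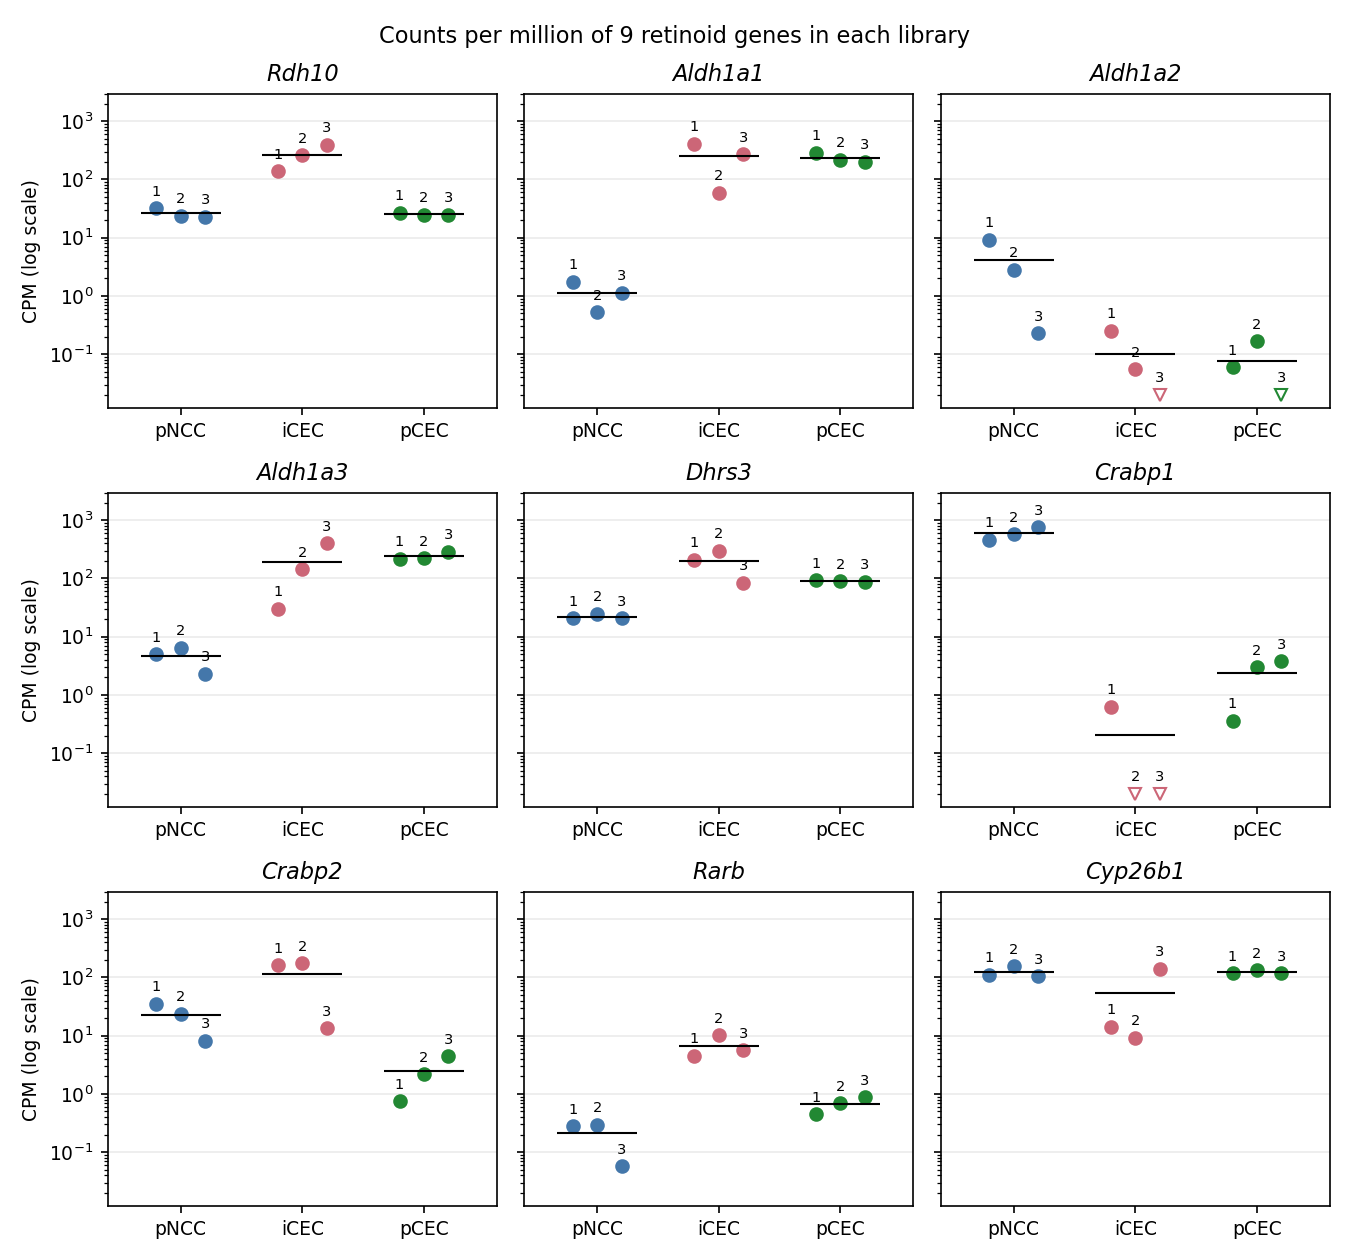
CPM of each of the 9 genes in every library, on a log axis, by group (pNCC, iCEC, pCEC). Points are libraries numbered by replicate, black lines are group means, and open triangles mark counts of 0, drawn at 0.02 CPM. Crabp1 is high in the 3 pNCC libraries only, while Aldh1a1, Aldh1a3 and Dhrs3 are higher in iCEC and pCEC than in pNCC.

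Rdh10 encodes the retinol dehydrogenase that supplies most retinal for retinoic acid synthesis in the embryo (chromosome 1, 16105774 to 16133734, plus strand, mm10). Its level was 31.9, 24.0 and 23.0 CPM in pNCC 1, 2 and 3, and 138, 263 and 395 CPM in iCEC 1, 2 and 3. It was 26.96, 25.0 and 24.7 CPM in pCEC 1, 2 and 3. Every iCEC library was above all 6 others, and pNCC and pCEC overlapped. Rdh10 was 9.92-fold higher in iCEC than in pNCC (log2 fold change 3.31 ± 0.378, SE; edgeR adjusted p = 0.00239). It was 9.43-fold higher in iCEC than in pCEC (3.24 ± 0.371, adjusted p = 0.00402). Between pCEC and pNCC the log2 fold change was 0.09 ± 0.145 (adjusted p = 0.624). As in any bulk sample, a smaller number of expressing cells and less RNA per cell cannot be told apart.

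Aldh1a1, a retinal dehydrogenase known in cornea, lens and dorsal retina (chromosome 19, 20492715 to 20643465, plus strand), was scarce in the neural crest cells. It stood at 1.74, 0.528 and 1.14 CPM in pNCC, 414, 58.8 and 274 CPM in iCEC, and 288, 217 and 200 CPM in pCEC. All 6 iCEC and pCEC libraries were above pNCC, and iCEC 2 was the lowest of the 6. The gene was 215-fold higher in iCEC than in pNCC (log2 fold change 7.75 ± 0.946, adjusted p = 0.00284), with a log2 fold change of 7.07 without iCEC 1. It was 225-fold higher in pCEC than in pNCC (7.81 ± 0.436, adjusted p = 1.15e-05). Between iCEC and pCEC the log2 fold change was -0.05 ± 0.612 (adjusted p = 0.967), and the SE leaves room for a sizeable difference either way. Of the 12 surface epithelium markers, 9 were tested in iCEC against pNCC, and all 9 were higher. In pCEC against pNCC, 10 of 12 were higher and 2 did not pass. Of all genes tested, 16.1% were higher in the first comparison and 30.3% in the second. The part of these markers in the results for Aldh1a1 and Aldh1a3 was not tested.

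Aldh1a3, the retinal dehydrogenase of ventral retina and other epithelia (chromosome 7, 66390890 to 66427517, minus strand), showed the same order of groups against pNCC. Its level was 4.97, 6.51 and 2.28 CPM in pNCC, 29.9, 143 and 405 CPM in iCEC, and 217, 224 and 286 CPM in pCEC. The groups did not overlap with pNCC, but iCEC spanned a 13.55-fold range, against 1.32-fold in pCEC. In iCEC it was 39.9-fold higher than in pNCC (log2 fold change 5.32 ± 0.990, adjusted p = 0.0107), with a log2 fold change of 4.34 without iCEC 3. That call was lost without pNCC 1 (adjusted p = 0.0564) and with replicate number as a block (adjusted p = 0.0533). In pCEC it was 58.6-fold higher than in pNCC (5.87 ± 0.406, adjusted p = 2.88e-05). Between iCEC and pCEC the log2 fold change was -0.52 ± 0.779 (adjusted p = 0.677). Within iCEC, the library with the most Aldh1a1, iCEC 1, held the least Aldh1a3.

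Aldh1a2, the main retinal dehydrogenase of embryonic mesoderm and mesenchyme (chromosome 9, 71215789 to 71296243, plus strand), ran the other way at low counts. It had 299, 95 and 8 counts in pNCC, which is 9.29, 2.79 and 0.228 CPM. It had 12, 2 and 0 counts in iCEC and 2, 6 and 0 counts in pCEC, or 0 to 0.2502 CPM over those 6 libraries. pNCC spanned a 40.7-fold range, and pNCC 3 fell below iCEC 1. Without the filter on low counts, edgeR gave adjusted p = 0.0878 in iCEC and 0.0635 in pCEC, each against pNCC. DESeq2's Wald test called both, with adjusted p = 0.000721 and 7.43e-06. The summed level of 10 keratocyte and fibroblast markers was 45990, 31060 and 27020 CPM in pNCC 1, 2 and 3 and 33.1 to 147 CPM in iCEC. In pCEC it was 1028, 9713 and 5610 CPM. The collagen genes Col1a1, Col1a2 and Col3a1 had the largest means in pNCC (14230, 11220 and 6250 CPM). Kera went the other way, at 0.672 ± 0.725 CPM in pNCC and 294 ± 214 CPM in pCEC. Against pNCC, 1 of 9 tested markers was higher in pCEC, 5 lower and 3 did not pass. In iCEC, 6 of 8 were lower and 2 did not pass. Of all genes tested, 30.3% were higher and 32.2% lower in pCEC, and 15.1% lower in iCEC. The part of these markers in the level of Aldh1a2 was not tested.

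Per length, the makeup of the retinal dehydrogenases differed between the groups. Levels of different genes were compared as CPM per kilobase of merged exons. The Aldh1a1, Aldh1a2 and Aldh1a3 levels summed to 5.54, 2.75 and 0.827 CPM per kilobase in pNCC, 90.5, 42.9 and 143 in iCEC, and 105, 92.5 and 102.5 in pCEC. Every iCEC and pCEC sum was above every pNCC sum. Aldh1a2 made up 74.2%, 44.8% and 12.2% of that sum in pNCC 1, 2 and 3, and at most 0.122% in any library of the other groups. Aldh1a3 made up 19.5%, 51.3% and 59.8% in pNCC 1, 2 and 3, and was the largest share in pNCC 2 and pNCC 3. The shares in pNCC 3 rest on few counts: 40 of Aldh1a1, 8 of Aldh1a2 and 80 of Aldh1a3. Aldh1a1 made up 92.7%, 27.8% and 38.7% in iCEC and 55.4%, 47.5% and 39.5% in pCEC, with Aldh1a3 nearly all of the rest. By merged exons, the order of Aldh1a1 and Aldh1a3 was not the same in all libraries of iCEC or of pCEC. By the length of the longest transcript in place of merged exons, the mean share of Aldh1a1 in pCEC was 58.3% instead of 47.4%, which turns its order with Aldh1a3. Aldh1a1 then held the larger share in every pCEC library (65.9%, 58.5% and 50.5%). In iCEC the order still differed between libraries, with Aldh1a1 at 95.2%, 37.5% and 49.7%. These shares are a description, with no test.

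**Figure D2:**
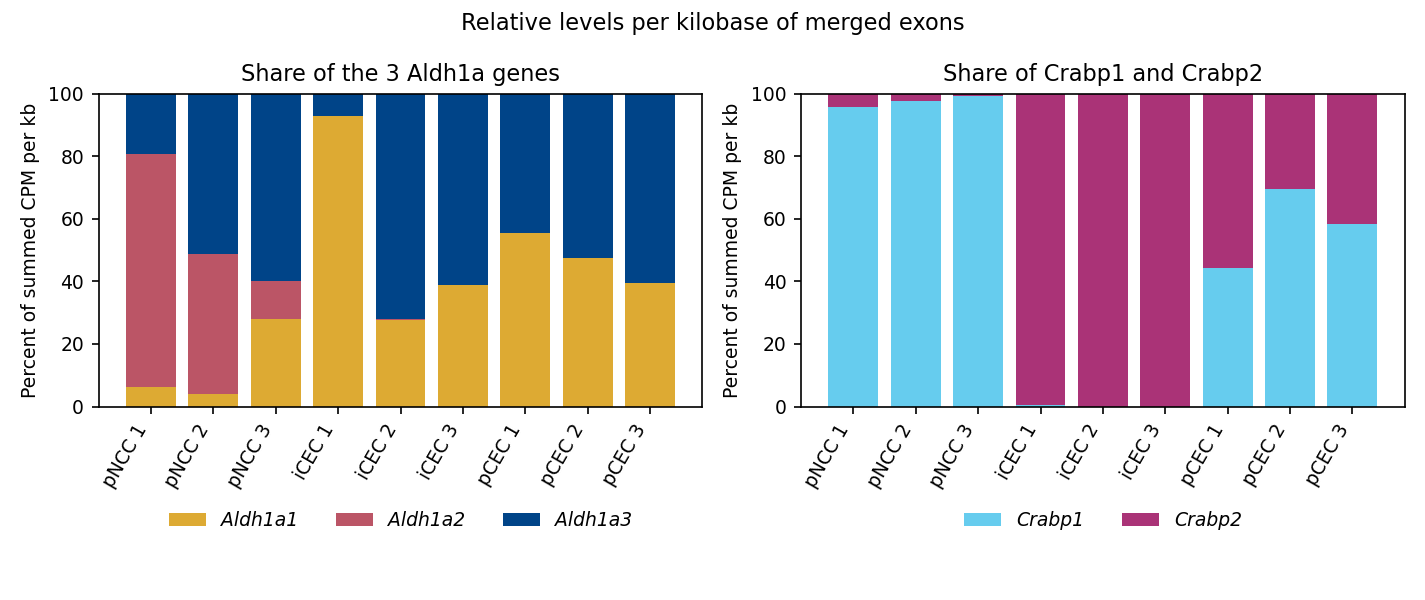
Levels per kilobase of merged exons in each library: stacked bars give the percent of each Aldh1a gene in their sum (left) and of Crabp1 and Crabp2 in theirs (right). Aldh1a2 holds 12.2% to 74.2% of the Aldh1a sum in pNCC and almost none elsewhere, and Crabp1 holds 95.6% to 99.3% of the Crabp sum in pNCC and at most 0.636% in iCEC.

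Dhrs3 encodes the reductase that returns retinal to retinol and is itself known to be induced by retinoic acid (chromosome 4, 144892827 to 144928209, plus strand). It stood at 20.8, 24.6 and 20.9 CPM in pNCC, 209, 299 and 84.9 CPM in iCEC, and 94.0, 90.4 and 87.9 CPM in pCEC. Both iCEC and pCEC were above pNCC in every library, and iCEC 3 was below all pCEC libraries. Dhrs3 was 9.39-fold higher in iCEC than in pNCC (log2 fold change 3.23 ± 0.543, adjusted p = 0.00766). It was 4.50-fold higher in pCEC than in pNCC (2.17 ± 0.109, adjusted p = 5.86e-06). The difference between iCEC and pCEC did not pass (1.04 ± 0.471, adjusted p = 0.171). Without iCEC 3 it did (log2 fold change 1.46, adjusted p = 0.00433). Most surface epithelium markers, counted above beside all genes tested, moved the same way as Dhrs3 against pNCC. Their part in its result was not tested.

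Rdh10, which gives retinal from retinol, and Dhrs3, which returns retinal to retinol, were set side by side per length. The ratio of Rdh10 to Dhrs3 was 1.08, 0.688 and 0.776 in pNCC and 0.202, 0.195 and 0.198 in pCEC. The pCEC libraries were nearly alike and all below pNCC. In iCEC the ratio was 0.466, 0.619 and 3.28, so that iCEC 1 and iCEC 2 lay below pNCC and iCEC 3 above it. RNA ratios do not measure enzyme activity.

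Crabp1, a cytosolic retinoic acid-binding protein long used as a marker of migrating neural crest (chromosome 9, 54764748 to 54773110, plus strand), was the most contrasted gene of the list. Its level was 462, 572 and 751 CPM in pNCC, which placed it above 99.3% of the 25881 symbols with a count there. In iCEC all 30 counts fell in iCEC 1 (0.625 CPM), and iCEC 2 and iCEC 3 had none. In pCEC it was 0.359, 2.995 and 3.80 CPM. No library of iCEC or pCEC came near pNCC. The fitted difference was 2543-fold lower in iCEC (log2 fold change -11.31 ± 1.58, adjusted p = 0.00426). Without iCEC 1 the group is at 0, and the mean of pNCC was at least 6960-fold higher at a floor of 3 counts per library. In pCEC, Crabp1 was 227-fold lower than in pNCC (-7.83 ± 0.851, adjusted p = 0.000225), and the log2 fold change was -7.24 without pCEC 1 and -10.66 with pCEC 1 as the only pCEC library. Between iCEC and pCEC the log2 fold change was -3.59 ± 1.76 (adjusted p = 0.202). Among pCEC libraries, pCEC 1 had the least Crabp1 and the lowest sum of keratocyte and fibroblast markers, given above. It is also the library labelled polyA RNA. The part of these in the levels of Crabp1 was not tested.

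Crabp2, which hands retinoic acid to the receptors and is abundant in skin epithelia (chromosome 3, 87948666 to 87953376, plus strand), separated iCEC from pCEC. It stood at 35.5, 24.0 and 8.25 CPM in pNCC, 161, 176 and 13.4 CPM in iCEC, and 0.748, 2.16 and 4.45 CPM in pCEC. All pCEC libraries were below the others, and iCEC 3 fell within the range of pNCC. Crabp2 was 8.24-fold lower in pCEC than in pNCC (log2 fold change -3.04 ± 0.751, adjusted p = 0.0103), with -3.79 without pCEC 3 and -4.86 with pCEC 1 as the only pCEC library. That call was lost without the filter on low counts (adjusted p = 0.0736) and with the replicate block (adjusted p = 0.0522). It was 44.4-fold higher in iCEC than in pCEC (5.47 ± 1.22, adjusted p = 0.0256), with log2 fold changes of 6.06 without iCEC 3 and 6.25 without pCEC 3. This call was lost without iCEC 1, iCEC 2, pCEC 1, pCEC 2 or pCEC 3 (adjusted p = 0.053 to 0.109), without the filter (0.11) and with the replicate block (0.139). Against pNCC, the difference of iCEC did not pass (2.48 ± 1.03, adjusted p = 0.119). It passed without iCEC 3 (2.99, adjusted p = 0.00807) and in DESeq2's Wald test (adjusted p = 0.0325).

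Per kilobase, the RNA of the 2 binding proteins, Crabp1 and Crabp2, differed between groups both in sum and in makeup. Crabp1 and Crabp2 summed to 603, 731 and 943 CPM per kilobase in pNCC, 123, 133 and 10.1 in iCEC, and 1.01, 5.37 and 8.10 in pCEC. The groups did not overlap in this sum, and pCEC was the lowest. Crabp1 made up 95.6%, 97.5% and 99.3% of it in pNCC, and 0.636%, 0% and 0% in iCEC. In pCEC the shares were 44.2%, 69.5% and 58.4%, of a sum that is small. Induced cells and neural crest cells thus had opposite members of the pair as nearly the whole of it.

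Rarb encodes retinoic acid receptor beta (chromosome 14, 16430839 to 16819156, minus strand), whose promoter holds the DR5 printed above. It was low in all groups, at 9, 10 and 2 counts in pNCC, 216, 370 and 190 counts in iCEC, and 15, 25 and 24 counts in pCEC. In CPM these were 0.280, 0.293 and 0.0571 in pNCC, 4.50, 10.1 and 5.66 in iCEC, and 0.449, 0.693 and 0.876 in pCEC. The groups did not overlap, with iCEC highest and pNCC lowest. Rarb was 32.9-fold higher in iCEC than in pNCC (log2 fold change 5.04 ± 0.773, adjusted p = 0.00562). It was 9.22-fold higher in iCEC than in pCEC (3.21 ± 0.579, adjusted p = 0.013), a call lost without pCEC 1, pCEC 2 or pCEC 3 (adjusted p = 0.055 to 0.0699). The 3.52-fold difference between pCEC and pNCC (1.81 ± 0.636, adjusted p = 0.0398) was lost without any 1 of the 3 pNCC libraries, pCEC 2 or pCEC 3 (adjusted p = 0.0753 to 0.122). It was also lost with the replicate block (0.103), without the filter (0.0671), tested against 2-fold (0.147) and by total counts without TMM scaling (0.0549). With pCEC represented by pCEC 1, its polyA RNA library, the log2 fold change was 1.13 (adjusted p = 0.405).

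Exons of Rarb overlap those of Top2b, a DNA topoisomerase gene on the opposite strand, over 1793 of 5265 bases (34.1%). Whether the counting used strand is not given in the sources used here, so reads from the shared bases cannot be told apart. Top2b itself stood at 201 ± 6.66 CPM in pNCC, 178 ± 42.5 CPM in iCEC and 138 ± 23.4 CPM in pCEC (SD, n = 3). The part of Top2b reads in the counts of Rarb was not tested.

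Cyp26b1 encodes the cytochrome P450 that hydroxylates retinoic acid in many embryonic mesenchymes (chromosome 6, 84571414 to 84593908, minus strand). It stood at 111, 157 and 105 CPM in pNCC and at 119, 134 and 119 CPM in pCEC, groups that overlapped. In iCEC it was 14.1 and 9.26 CPM in iCEC 1 and iCEC 2, and 142 CPM in iCEC 3. The first pair lay below every other library, while iCEC 3 lay within the range of pNCC. The log2 fold change was -1.32 ± 0.951 in iCEC against pNCC (adjusted p = 0.338) and -1.39 ± 0.958 against pCEC (adjusted p = 0.352). Without iCEC 3 both differences passed, at -3.34 (adjusted p = 0.000595) and -3.44 (adjusted p = 0.000411). Between pCEC and pNCC it was 0.13 ± 0.164 (adjusted p = 0.524).

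iCEC 3 thus stood apart from iCEC 1 and iCEC 2 in several of these genes. It held the most Rdh10 and Aldh1a3 and the least Dhrs3 and Crabp2 of the group, and Cyp26b1 at 142 CPM. The ratio of the summed Aldh1a level to Cyp26b1, per kilobase, was 0.266, 0.0936 and 0.0421 in pNCC and 4.73, 3.71 and 4.61 in pCEC. In iCEC it was 34.3, 24.8 and 5.42. The 3 groups did not overlap, but iCEC 3 lay closer to pCEC than to the other iCEC libraries.

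**Figure D3:**
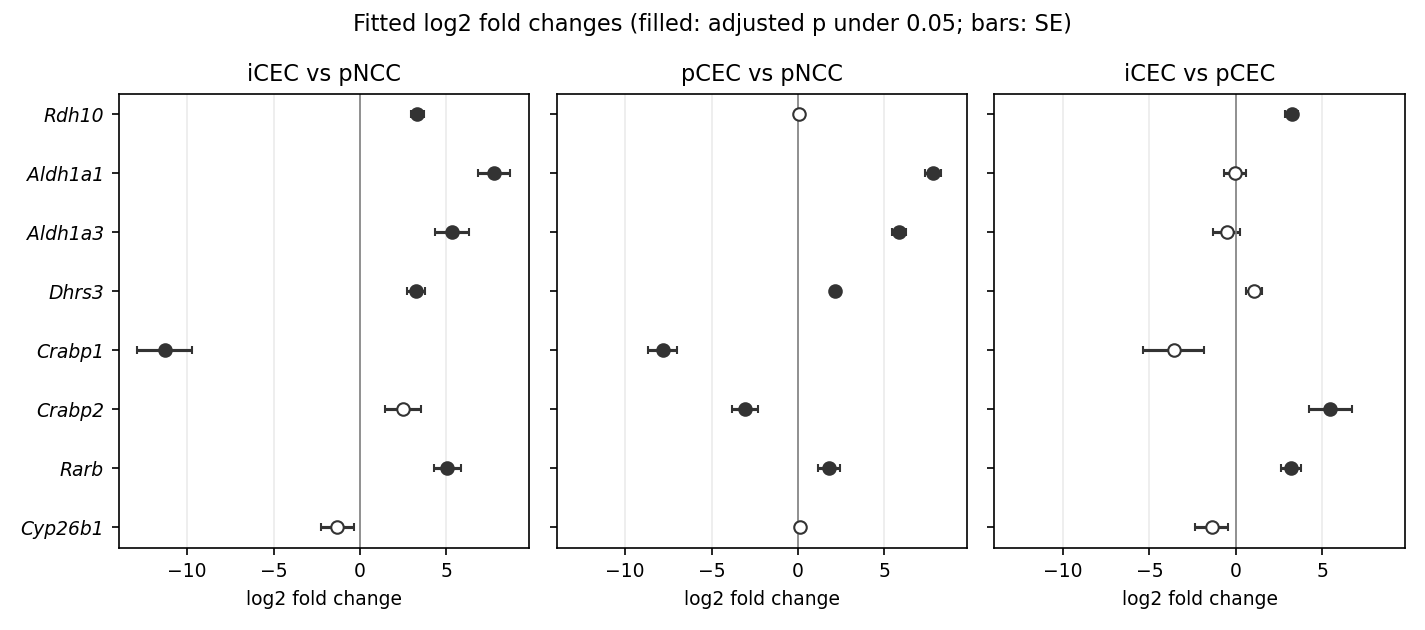
Log2 fold change and its approximate SE for the 8 tested genes in the 3 comparisons, with filled points for an adjusted p under 0.05 and open points for those that did not pass. Crabp1 lies far below 0 against pNCC in both iCEC (-11.31) and pCEC (-7.83), and Rdh10 stands out only where iCEC is compared.

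Beyond these genes, 80 other genes of the retinoid pathway were followed by list. In iCEC against pNCC, 61 were tested and 42 of them did not pass, while 14 were higher and 5 lower (median log2 fold change 0.27). In pCEC against pNCC, 63 were tested, with 21 higher, 21 lower and 21 not passed (median 0.12). In iCEC against pCEC, 56 were tested, with 9 higher, 14 lower and 33 not passed (median -0.00). Of all genes tested, 16.1% were higher and 15.1% lower in iCEC against pNCC, and 10.5% and 9.92% in iCEC against pCEC. The shares called higher and lower in pCEC against pNCC were close to those of all genes tested (30.3% and 32.2%). Nothing particular to the pathway is read from these counts.

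Of 11 genes of retinol uptake and storage, 3 of 6 tested were higher in iCEC than in pNCC and none lower. In pCEC, 5 of 8 were higher than in pNCC and 1 lower, and in iCEC against pCEC 1 of 7 was higher, 3 lower and 3 did not pass. Of all genes tested, 16.1% were higher and 15.1% lower in iCEC against pNCC. These shares were 30.3% and 32.2% in pCEC against pNCC, and 10.5% and 9.92% in iCEC against pCEC. Stra6, the membrane receptor that takes up retinol from its plasma carrier, was 377, 293 and 7.98 CPM in iCEC and under 1 CPM in every other library. Its log2 fold change was 8.38 ± 1.57 against pNCC (adjusted p = 0.0108) and 8.85 ± 1.63 against pCEC (adjusted p = 0.0144). The first call was lost without any 1 pNCC library (adjusted p = 0.0553 to 0.059). The second was lost without any 1 pCEC library (adjusted p = 0.0592 to 0.0723), and without the filter on low counts (0.075). Its log2 fold change was 9.47 without iCEC 3 and 9.49 without pCEC 3.

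Rbp2, a cellular retinol-binding protein known from intestine, followed another order. It was 319, 331 and 364 CPM in pCEC, 16.9, 1.09 and 0.357 CPM in iCEC, and at most 0.0586 CPM in pNCC. It was higher in pCEC than in pNCC (log2 fold change 13.06 ± 0.382, adjusted p = 1.04e-06). In iCEC it was higher than in pNCC (7.22, adjusted p = 0.0351), but 4.16 without iCEC 1, and the call was lost without any 1 pNCC library (adjusted p = 0.117 to 0.123) or without the filter (0.057). It was lower in iCEC than in pCEC (-5.88, adjusted p = 0.038), with -8.94 without iCEC 1 and -5.29 without iCEC 3. That call was lost without iCEC 2 or any 1 pCEC library (adjusted p = 0.0782 to 0.1) and without the filter (0.158).

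Of 20 retinol and retinal oxidoreductases, 2 of 14 tested were higher and none lower in iCEC than in pNCC. In pCEC, 5 of 16 were higher and 6 lower than in pNCC, beside 30.3% and 32.2% of all genes tested. The share higher in iCEC was near that of all genes tested (16.1%). Adh1, a cytosolic alcohol dehydrogenase that oxidises retinol, was 862, 931 and 824 CPM in pCEC, 3.05 to 10.3 CPM in pNCC and 0 to 0.896 CPM in iCEC. Its log2 fold change was 7.38 ± 0.544 in pCEC against pNCC (adjusted p = 3.74e-05; 8.06 without pNCC 1). In iCEC against pCEC it was -10.69 ± 1.32 (adjusted p = 0.00523; -10.08 without iCEC 3).

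Adh7, the alcohol dehydrogenase of stomach and cornea epithelia, was 1312, 1200 and 1002 CPM in pCEC, 10.8 to 34.2 CPM in pNCC, and 0.646, 0.954 and 13.7 CPM in iCEC. It was 55.3-fold higher in pCEC than in pNCC (log2 fold change 5.79 ± 0.446, adjusted p = 4.56e-05). Against pCEC, iCEC was lower (-8.06 ± 1.42, adjusted p = 0.0126; -10.54 without iCEC 3), a call lost without the filter (adjusted p = 0.0609). The corneal epithelial keratin Krt12 was likewise high in pCEC and nearly absent from iCEC. Not all surface epithelium markers ran this way: Krt14 was 7768 ± 1897 CPM in iCEC and 1282 ± 1135 CPM in pCEC. In iCEC against pCEC, 3 of the 12 markers were higher, 5 lower and 4 did not pass. Of all genes tested there, 10.5% were higher and 9.92% lower. The part of these markers in the results for Adh1 and Adh7 was not tested.

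Rdh16, a microsomal retinol dehydrogenase, had 2 counts in all of pNCC. Its summed level was 1280 times that of pNCC in pCEC (95% counting interval 353 to 10600) and 50.1 times in iCEC (13.6 to 419). Against pNCC, its edgeR log2 fold change was 10.19 in pCEC (adjusted p = 2.04e-05) and 5.43 in iCEC (adjusted p = 0.0095). Without pNCC 3 these were 12.75 and 8.20. The iCEC call was lost without pNCC 1 or pNCC 2 (adjusted p = 0.0524 and 0.0539). In iCEC against pCEC the log2 fold change was -4.79 (adjusted p = 0.00163). Akr1b3, the aldose reductase, was 2.88-fold higher in pCEC than in pNCC (log2 fold change 1.53 ± 0.176, adjusted p = 0.000252). In iCEC it was 1.88-fold higher than in pNCC (adjusted p = 0.0464), a call lost without any of the pNCC libraries, iCEC 1 or iCEC 2 (adjusted p = 0.0659 to 0.161), without the filter (0.0526) and with DESeq2 size factors (0.053).

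Aldh1a7, a close relative of Aldh1a1, followed it at lower levels. It was 0.808, 0.176 and 0.400 CPM in pNCC, 12.1, 7.14 and 8.93 CPM in iCEC, and 15.7, 20.1 and 15.1 CPM in pCEC. Its log2 fold change was 4.35 ± 0.652 in iCEC (adjusted p = 0.00523; 4.98 without pNCC 1) and 5.33 ± 0.482 in pCEC (adjusted p = 8.07e-05; 5.96 without pNCC 1), each against pNCC. The longest identical stretch between transcripts of Aldh1a1 and Aldh1a7 was 100 bases, shorter than a 150-base read. No stretch of 150 bases in any transcript of the 9 genes was shared with another gene.

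Of the 7 receptors and partners outside the list, 2 were higher, 1 was lower and 4 did not pass in iCEC against pNCC. In pCEC against pNCC, 3 were higher, 2 lower and 2 did not pass. Of all genes tested, 16.1% were higher and 15.1% lower in the first comparison, and 30.3% and 32.2% in the second. Rarg, the receptor of epithelia and cartilage, was 122, 122 and 93.2 CPM in pNCC, 185, 180 and 164 CPM in iCEC, and 413, 452 and 432 CPM in pCEC. The groups did not overlap. It was 4.22-fold higher in pCEC than in pNCC (log2 fold change 2.08 ± 0.141, adjusted p = 2.06e-05) and lower in iCEC than in pCEC (-1.41 ± 0.196, adjusted p = 0.0064). The smaller difference of iCEC from pNCC (0.67 ± 0.194, adjusted p = 0.0432) was lost without any 1 pNCC library, iCEC 1 or iCEC 2 (adjusted p = 0.0914 to 0.165), and without the filter (0.0689).

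Rara, the widely expressed alpha receptor, was lower in pCEC than in pNCC (log2 fold change -0.96 ± 0.234, adjusted p = 0.00895; -1.63 with pCEC 1 as the only pCEC library), at 11.2 to 19.5 CPM against 34.0 to 37.5 CPM. Rxra, the main RXR partner of epithelia, was 2.06-fold higher in pCEC than in pNCC (1.04 ± 0.138, adjusted p = 0.000488). Rxrb was higher in iCEC (0.64, adjusted p = 0.0349) and in pCEC (0.46, adjusted p = 0.0195) than in pNCC. These calls were lost without any 1 pNCC library or iCEC 1 in the first case (adjusted p = 0.0698 to 0.139), and without pNCC 2, pNCC 3, pCEC 2 or pCEC 3 in the second (0.0539 to 0.0686). Rxrg was low everywhere, at 0.653, 1.29 and 1.20 CPM in pNCC and at 0 in all iCEC libraries, at least 13.45-fold lower (adjusted p = 0.00682). In pCEC it was lower as well (-3.88, adjusted p = 0.00419; -3.23 without pCEC 1 and -4.66 without pCEC 2).

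**Figure D4:**
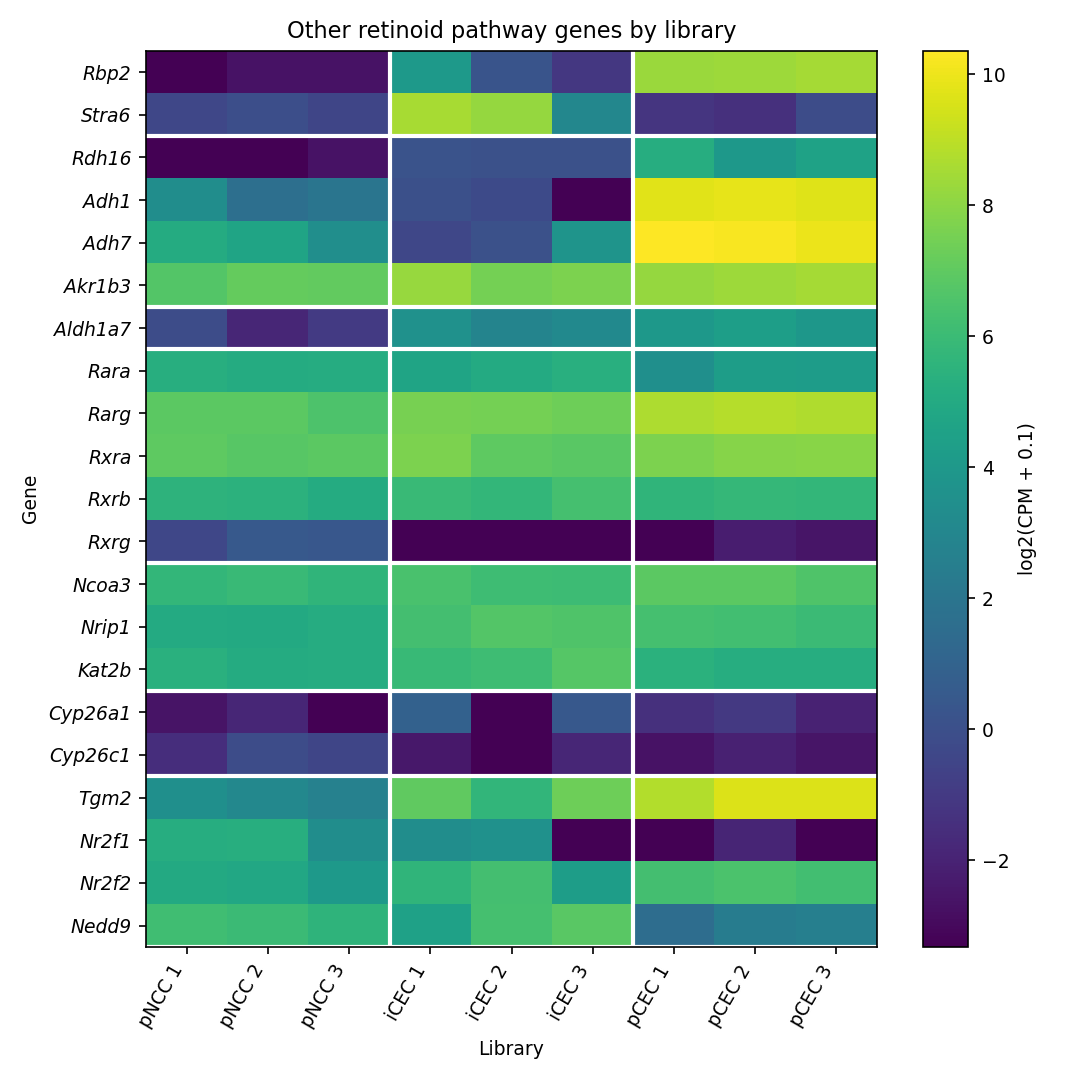
Colour gives log2(CPM + 0.1) of each pathway gene named in the text outside the list (rows) in each library (columns), with white lines between groups and between gene lists. Lrat, Dkk2, Ret and Rarres2, named only under Other observations, are not drawn. Stra6 is high in iCEC 1 and iCEC 2, while Rbp2, Adh1 and Adh7 are high in pCEC.

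Among 12 receptor cofactors, 3 were higher, 1 was lower and 8 did not pass in iCEC against pNCC, and 2, 3 and 7 in pCEC against pNCC. The shares higher and lower over all genes tested were 16.1% and 15.1% in iCEC and 30.3% and 32.2% in pCEC, each against pNCC. Nrip1, a corepressor known to be induced by retinoic acid, was 31.7 to 35.6 CPM in pNCC, 76.8 to 102 CPM in iCEC and 65.0 to 78.5 CPM in pCEC. It was higher in iCEC (log2 fold change 1.46 ± 0.191, adjusted p = 0.00341) and in pCEC (1.23 ± 0.114, adjusted p = 8.45e-05) than in pNCC. The coactivator Ncoa3 was higher in pCEC than in pNCC (1.16 ± 0.119, adjusted p = 0.000146). It was lower in iCEC than in pCEC (-0.72, adjusted p = 0.0405), lost without iCEC 2 or any 1 pCEC library (0.0882 to 0.148) and without the filter (0.0727). The acetyltransferase Kat2b was higher in iCEC than in pNCC (1.08, adjusted p = 0.0115; lost without pNCC 2 or pNCC 3, 0.0683 and 0.057). It was also higher in iCEC than in pCEC (0.89, adjusted p = 0.035), lost without iCEC 2 or any 1 pCEC library (0.0537 to 0.15).

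Of 26 genes known to respond to retinoic acid, 3 of 21 tested were higher, 3 lower and 15 did not pass in iCEC against pNCC. In pCEC against pNCC, 5 of 19 were higher, 9 lower and 5 did not pass, beside 30.3% higher and 32.2% lower of all genes tested. In iCEC against pCEC, 4 of 15 were higher and 5 lower, beside 10.5% higher and 9.92% lower of all genes tested. The shares in iCEC against pNCC were close to those of all genes tested (16.1% higher and 15.1% lower). Tgm2, a transglutaminase long used as a readout of retinoic acid, was 6.25 to 11.0 CPM in pNCC, 130, 50.8 and 163 CPM in iCEC and 446, 788 and 786 CPM in pCEC. The groups did not overlap. It was 13.1-fold higher in iCEC (log2 fold change 3.71 ± 0.436, adjusted p = 0.00254) and 87.5-fold higher in pCEC (6.45 ± 0.368, adjusted p = 1.09e-05; 5.75 with pCEC 1 alone), each against pNCC. Its lower level in iCEC than in pCEC (-2.72 ± 0.479, adjusted p = 0.0122) did not pass without pCEC 2 or pCEC 3 (0.0525 and 0.053).

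Nr2f2, an orphan receptor of mesenchyme and vein, was 17.0 to 31.7 CPM in pNCC and 74.0 to 90.6 CPM in pCEC (log2 fold change 1.77 ± 0.223, adjusted p = 0.000393). Its relative Nr2f1 went the other way, from 10.2 to 37.8 CPM in pNCC to 0, 0.166 and 0 CPM in pCEC (-8.63 ± 0.944, adjusted p = 0.000231). Its log2 fold change was -7.97 without pCEC 1 and -12.78 without pCEC 2. The scaffold gene Nedd9 was lower in pCEC than in pNCC (-3.56 ± 0.320, adjusted p = 8.72e-05; -4.38 with pCEC 1 alone) and higher in iCEC than in pCEC (3.81 ± 0.668, adjusted p = 0.0125). The latter call was lost without any 1 pCEC library (0.053 to 0.0621). Of the genes that hold a DR5 in the printed windows, Rarb rose in iCEC. Cyp26a1 had 87, 0 and 43 counts in iCEC, 2, 6 and 0 in pNCC, and 9, 14 and 4 in pCEC, and its iCEC libraries spanned the range of the others. Cyp26c1 stayed under 1 CPM in every library.

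The genes whose levels were most alike to each gene over the 9 libraries were found by Pearson's r of log2 CPM among 10135 genes. The points of each r share their libraries and groups, so r describes the order of libraries and carries no test. For Rdh10 the closest were Sox9 (r = 0.987), Clmn (0.981) and 8030462N17Rik (0.981). Sox9, a transcription factor of neural crest, cartilage and epithelial progenitors, averaged 36.5 CPM in pNCC, 332 CPM in iCEC and 26.0 CPM in pCEC. For Aldh1a1 they were Prkcz (0.99), the keratin gene Krt15 (0.988) and Cdc42bpg (0.987). For Aldh1a3 they were Pkp4 (0.989), Sh3tc2 (0.986) and Cnksr3 (0.985). For Dhrs3 they were Cebpa (0.992), Eml3 (0.991) and Lmtk2 (0.99).

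Crabp1 was most alike to Tmem184b (r = 0.994), Lrrc17 (0.993) and Nnmt (0.993). Genes most alike to Crabp2 included Ndufa4l2 (0.961) and Icam1 (0.961). Rarb was most alike to the tight junction gene Cldn1 (0.982), Cln3 (0.979) and Vwa1 (0.973). Cyp26b1 was most alike to Eif4a-ps4 (0.984), Eif4g2 (0.977) and Trim37 (0.971). An r of at least 0.95 was reached by 246 genes for Aldh1a1 but by only 9 for Crabp2 and 10 for Cyp26b1.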

How the data were processed

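Counts of 9 mouse RNA-seq libraries were used as the authors deposited them: whole-number read counts per gene symbol, not normalized. Per the submitters' processing notes the build was mm10 and edgeR was used. Its role, the aligner, the counting tool and the annotation are not given in the sources used here. The labels name the NEBNext Ultra RNA kit and 150-base paired reads. Groups and replicate numbers came from the sample titles. Replicates of a group differed by more than sampling noise (chi-square per degree of freedom 48.4 to 682), so none was merged.

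Each comparison was fitted on its own 6 libraries in R 4.3.3 with edgeR 4.0.16 (filterByExpr, TMM, robust quasi-likelihood fit, 2-sided). All genes of a comparison were adjusted together by Benjamini-Hochberg (threshold 0.05). CPM is a count scaled to the library total, while fold changes use TMM scaling. The approximate SE restates the test, as the size of the log2 fold change over the root of its F statistic. Total counts of 27389292 to 47967113 put 3 counts at 0.0625 to 0.11 CPM. Bounds and intervals cover counting error only. Alternatives were DESeq2 size factors, DESeq2 1.42.0, no filter, a filter at 1 CPM (3 libraries), a common fit of all 9 libraries, a replicate block, each library left out, the polyA RNA library alone for pCEC, a 2-fold minimum, longest transcripts as gene lengths, and total counts without TMM, which was chosen after seeing the data. The fit was tested on simulated data.

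Positions and exon lengths are from GENCODE M21 (mm10), promoters from RefSeq. The listed genes and the pathway and marker lists were chosen with earlier results of these data known. All 9 listed genes were named in every comparison. Other pathway genes were named if called at least once with a group mean of 10 CPM or more, up to 4 per list by adjusted p, plus all receptors, Cyp26a1, Cyp26c1 and Aldh1a7. The 3 most alike genes were taken among genes of at least 10 CPM on average, with a prior count of 2. Some genes that this rule takes are not reported here. Protein sequences were not used here. Tables and figures were made in Python 3.11.15 with pandas 2.3.3, numpy 2.4.6 and matplotlib 3.10.9.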

Additional observations from a re-analysis of the deposited data

How the results depend on the processing

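Of all 16293 genes tested in iCEC against pNCC, 5093 were called, against 2602 tested against 2-fold and 2864 with a replicate block. Leaving out 1 library gave 2322 (without pNCC 2) to 7684 (without iCEC 3). In pCEC against pNCC, 10382 were called, and 5716 against 2-fold. In iCEC against pCEC, 3327 were called, against 5001 by DESeq2's Wald test, 1433 against 2-fold and 1295 with the block, and 1131 (without pCEC 2) to 4974 (without iCEC 3) without 1 library. With pCEC represented by its polyA RNA library alone, assumed to vary like iCEC, edgeR called 0 genes and 0 listed genes there, with 2529 of 18806 at an unadjusted p under 0.05. Other tools were not run on that set. The listed genes called in iCEC against pCEC numbered 3, and 1 (without pCEC 1, pCEC 2 or pCEC 3) to 5 (without iCEC 3) without 1 library. The listed genes called with the replicate block were 5, 4 and 2 in the 3 comparisons, against 6, 6 and 3. The block also ended the calls of Rbp2, Stra6, Akr1b3, Rarg, Rxrb, Rxrg and Kat2b in iCEC against pNCC, and of Rbp2, Stra6, Ncoa3, Kat2b and Tgm2 in iCEC against pCEC. Numbers did not pair the libraries: correlations of same-numbered deviations ran from -0.181 to 0.071, and not every library correlated best with its own number. Some directions turned where no difference passed. In pCEC against pNCC, the log2 fold change of Rdh10 was -0.001 (without pNCC 2) to 0.224 (without pNCC 1) without 1 library and -0.044 by total counts, and that of Cyp26b1 was -0.029 with the polyA RNA library alone and -0.007 by total counts. In iCEC against pCEC, that of Aldh1a1 was -0.683 (without iCEC 1) to 0.434 (without iCEC 2) without 1 library, 0.064 without pCEC 1 and 0.085 by total counts. No other tested direction of a listed gene turned under the alternatives run. The causes were not tested. Depth limits Aldh1a2, Rarb and Cyp26a1, which rest on few counts.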

Other observations

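Some pathway genes outside the naming rule, chosen after their values were seen, separated the groups or iCEC 3. Lrat, which esterifies retinol for storage, had no count in pNCC or pCEC, and was 0.542, 0.0545 and 9.58 CPM in iCEC 1, 2 and 3. Dkk2, a Wnt antagonist of the periocular mesenchyme, was 13.3 to 15.2 CPM in pNCC, 17.5, 53.0 and 52.5 CPM in pCEC, and 0.167, 0 and 0 CPM in iCEC. Ret, a receptor tyrosine kinase gene, was 6.02 to 12.3 CPM in pNCC, 7.96 to 12.8 CPM in pCEC and 0.0417, 0.109 and 0.952 CPM in iCEC. Rarres2, the gene of chemerin, was 10.6 to 20.5 CPM in pNCC, 0.389 to 2.36 CPM in pCEC and at most 0.125 CPM in iCEC.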
